A study of Mus musculus with 72 samples.

Results

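The 45 genes described here are those with the most exons covered by sequencing reads in mouse embryonic stem cells, and they were followed exon by exon through a time course of RNA labeling in the nucleus and the cytosol. Members were chosen on 1 library, the nuclear fraction after 120 min of labeling, replicate 5. A gene entered if at least 40 of its annotated exons each had at least 400 T counts, that is, at least 400 sequenced positions at which the reference transcript has a T. The rule kept 45 of 14294 genes with at least 1 such exon, and 2270 of 96010 exons. Only the T counts of that library chose the members, so coverage is a property of the choice and not a result. Just inside the limit, with 40 exons each, were Cep192, Ubr3 and Usp24. Just outside it, with 39 exons each, were Dnmt1, Mtor, Myh10, Myh9, Nipbl, Piezo1, Smarca4, Taf1, Tmem131 and Trpm7.

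The cells were E14TG2a, an established line of mouse embryonic stem cells, grown on gelatin in medium with fetal bovine serum, LIF and the inhibitors CHIR99021 and PD0325901 (2i), the same in all groups and with no genetic change named in the labels. Cells received the uridine analog 4-thiouridine (4sU) for 15, 20, 30, 40, 60 or 120 min, and were separated by stepwise detergent extraction into a cytosolic, a membrane and a nuclear fraction or kept as whole cells. The buffers held cycloheximide, an inhibitor of translation, and the libraries were made from polyadenylated RNA. Replicates 1 and 2 cover 15, 20 and 30 min, replicates 3 and 4 cover 20, 40, 60 and 120 min, and replicates 5 and 6 cover 60 and 120 min, in each of the 4 fractions, 72 libraries in all. The labels give a 4sU dose of 500 µM for 15 to 40 min and of 100 µM for 60 and 120 min, whereas the methods of the study place some of the longer pulses at the higher dose. The replicate pairs were kept apart as batches and the 120 min libraries of replicates 3 and 4 were left out of the tests. No unlabeled library was analysed here. The measure throughout is the share of labeled RNA. It is the number of T2C mismatches (a T read as C, the mark left by 4sU after chemical conversion) over T counts and over the conversion rate of the library. A share of 0 stands for no new RNA and 1 for RNA made wholly during the pulse.

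Long genes are read by RNA polymerase II from the 5′ to the 3′ end, and an RNA gains its poly(A) tail only after the polymerase has passed the last exon. A polyadenylated molecule that finished early in a pulse was already partly made when 4sU arrived, so it carries label only in its downstream exons, and with longer pulses the labeled stretch reaches farther upstream. A finished RNA then has to leave the nucleus, so the cytosol receives the same molecules later. The encoded proteins are large: cytoskeletal crosslinkers and motors (Macf1, Dst, Dync1h1), ubiquitin ligases and deubiquitinases (Trip12, Ubr3, Usp24), scaffolds of RNA and ribosome processing (Cnot1, Prpf8, Mdn1), nuclear pore rings (Nup205, Nup188) and extracellular matrix proteins (Fn1, Hspg2, Lama5).

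The contrast the report turns on can be seen in single exons, so an upstream and a downstream exon of 4 genes are printed here, each in the sense of the RNA, with T for U, in GRCm38 (mm10), the build of the files. Every T is a capital, because only a T can carry the label. The upstream exon of Trip12, chr1:84776317-84776412 (minus strand, exon 7 of 43, 55.2 kb from the 3′ end), and its downstream exon, chr1:84731623-84731777 (exon 36, 10.5 kb), read:
Trip12 upstream exon: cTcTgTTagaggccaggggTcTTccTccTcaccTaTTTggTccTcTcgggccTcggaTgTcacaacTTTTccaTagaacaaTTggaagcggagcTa
Trip12 downstream exon: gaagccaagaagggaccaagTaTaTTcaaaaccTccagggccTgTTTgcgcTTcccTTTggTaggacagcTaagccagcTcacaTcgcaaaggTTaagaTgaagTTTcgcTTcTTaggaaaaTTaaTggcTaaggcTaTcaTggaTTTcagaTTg
The upstream exon of Usp24, chr4:106388501-106388660 (plus strand, exon 7 of 40, 52.7 kb), and its downstream exon, chr4:106428488-106428553 (exon 33, 12.8 kb), read:
Usp24 upstream exon: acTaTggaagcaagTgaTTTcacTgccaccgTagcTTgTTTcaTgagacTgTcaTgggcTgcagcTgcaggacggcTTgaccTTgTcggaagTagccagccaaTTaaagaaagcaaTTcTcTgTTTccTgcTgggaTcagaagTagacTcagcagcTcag
Usp24 downstream exon: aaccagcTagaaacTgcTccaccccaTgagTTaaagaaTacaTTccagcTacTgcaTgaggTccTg
The upstream exon of Ubr3, chr2:69935892-69936022 (plus strand, exon 6 of 40, 88.1 kb), and its downstream exon, chr2:70009103-70009206 (exon 33, 14.9 kb), read:
Ubr3 upstream exon: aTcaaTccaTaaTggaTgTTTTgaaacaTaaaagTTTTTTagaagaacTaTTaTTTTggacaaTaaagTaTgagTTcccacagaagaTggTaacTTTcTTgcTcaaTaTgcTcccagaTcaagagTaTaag
Ubr3 downstream exon: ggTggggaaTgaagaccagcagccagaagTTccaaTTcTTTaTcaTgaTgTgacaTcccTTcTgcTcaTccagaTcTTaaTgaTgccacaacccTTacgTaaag
The upstream exon of Macf1, chr4:123491694-123491832 (minus strand, exon 16 of 98, 142 kb), and its downstream exon, chr4:123374732-123374926 (exon 82, 25.2 kb), read:
Macf1 upstream exon: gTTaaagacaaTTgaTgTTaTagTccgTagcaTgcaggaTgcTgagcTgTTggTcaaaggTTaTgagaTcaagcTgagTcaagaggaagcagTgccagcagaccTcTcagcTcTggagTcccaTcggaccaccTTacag
Macf1 downstream exon: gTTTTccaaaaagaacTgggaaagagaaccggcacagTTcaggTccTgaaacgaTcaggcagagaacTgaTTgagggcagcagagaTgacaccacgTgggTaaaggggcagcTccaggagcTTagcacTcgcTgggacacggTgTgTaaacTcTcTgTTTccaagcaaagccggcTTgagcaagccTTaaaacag

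In the nucleus after 40 min, 4 and 2 T2C mismatches were found in the upstream exon of Trip12 (replicates 3 and 4), a share of 0.0159 and 0.00474, against 275 and 223 mismatches, a share of 0.152 and 0.139, in its downstream exon. At 120 min the exons were close: 0.363 and 0.352 upstream and 0.417 and 0.321 downstream (replicates 5 and 6). The upstream exon of Usp24 had no mismatch in 667 and in 1254 T counts at 40 min, while its downstream exon had 25 and 11 mismatches, a share of 0.331 and 0.159. The upstream exon of Ubr3 had 1 and 0 mismatches and its downstream exon 12 and 13. In Macf1, a gene named for a flat profile, the upstream exon had 0 mismatches in 506 and 1 in 1134 T counts, a share of 0 and 0.0148. The downstream exon had 14 mismatches in each library, in 20136 and 21219 T counts, a share of 0.0115 and 0.0111, so the exons of Macf1 were not told apart at this depth. Trip12, Usp24 and Ubr3 were named for a fall of label away from the 3′ end in these same 2 libraries, so the 40 min values describe that choice and the other times are the measurement.

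The nuclear libraries held 14384152 to 52975732 reads on genes and the cytosolic ones 19572053 to 30613392, with a conversion rate of 2.07% to 12.2% per T. The 45 genes took 1.80% to 4.18% of nuclear and 0.553% to 1.09% of cytosolic gene reads. Markers of embryonic stem cells summed to 4010 to 6317 CPM in the nuclear libraries, against 2.43 to 4.71 for primitive endoderm, 4.58 to 10.7 for fibroblasts or feeders, 37.3 to 72.8 for neural cells and 53.0 to 119 for trophoblast. Label itself had a floor: in the cytosolic 15 min libraries 0.0281% of member T counts were T2C. That percentage would amount to a share of 0.0105 to 0.0127 in the nuclear 15 min, 0.00465 to 0.00472 in the nuclear 40 min and 0.0109 to 0.0118 in the cytosolic 60 min libraries of replicates 5 and 6. In whole cells the library labelled 60 min, replicate 6, had a median member share of 0.331 and the one labelled 120 min, replicate 6, of 0.146, the reverse of replicate 5 (0.197 and 0.329). No result below uses whole cells.

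The members spanned 17.0 to 187 kb from the first to the last counted exon, with a median of 67.7 kb, against 27.4 kb for the 3606 annotated genes with 10 to 39 counted exons. They had 40 to 98 exons, median 48, of 18 to 5361 bases, median 144. Of the 2270 exons, 2134 were wholly coding, 123 partly and 13 not, and 187 overlapped another annotated exon of the same gene. All 45 genes were protein-coding; they lay on 18 chromosomes, 3 of them (Huwe1, Flna and Usp9x) on the X chromosome.

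With all members pooled, nuclear label was highest in the exons nearest the 3′ end after short pulses and had spread over the gene by 120 min. In the 15 min libraries of replicates 1 and 2, exons within 5 kb of the 3′ end had a share of 0.0255 and 0.0202, and exons 5 to 10 kb away 0.0121 and 0.00990, already at the floor. At 20 min (replicates 3 and 4) the values were 0.0644 and 0.0575 within 5 kb, 0.0326 and 0.0292 at 5 to 10 kb, and 0.0171 and 0.0194 at 20 to 40 kb. At 40 min they were 0.0919 and 0.0894 within 5 kb, 0.0526 and 0.0537 at 10 to 20 kb, and 0.0307 in both libraries at 40 to 60 kb. At 20 and 40 min the 2 libraries lay closer to each other than to the next distance class out to 20 kb. Exons over 120 kb from the 3′ end, from 8 genes, did not follow. They had 0.0506 and 0.0531 at 20 min and 0.129 and 0.0779 at 40 min, and 0.103 and 0.0456 at 40 min without exons of over 2000 bases.

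With all members pooled, the slope was shallow at 60 min and turned by 120 min. After 60 min (replicates 5 and 6) the share was 0.131 and 0.116 within 5 kb and 0.116 and 0.0950 at 40 to 60 kb. After 120 min it was 0.233 and 0.206 within 5 kb, 0.286 and 0.247 at 20 to 40 kb, and 0.352 and 0.288 at 40 to 60 kb. It was 0.339 and 0.317 at 60 to 80 kb, 0.262 and 0.221 at 80 to 120 kb and 0.280 and 0.235 beyond 120 kb, so each of these classes carried more label than the exons within 5 kb in both libraries. The 120 min libraries of replicates 3 and 4 had the same order, 0.206 and 0.176 within 5 kb against 0.310 and 0.225 at 40 to 60 kb. In genes with 10 to 39 exons the share at 120 min (replicates 5 and 6) was 0.377 and 0.350 within 5 kb and 0.315 and 0.277 at 40 to 60 kb, so those genes kept the order of the shorter pulses. Pooled sums weigh genes by their T counts, and the 2 farthest classes hold exons of 17 and 8 genes. Far classes hold exons of the longer members only, so the classes differ in their genes. Gene by gene, the median log2 ratio of the 3′ to the 5′ segment (defined below) at 120 min was -0.39 in members shorter than 30 kb. It was -0.13 at 30 to 60 kb, -0.01 at 60 to 90 kb (8 of 16 above 0) and 0.01 at 90 kb or more (5 of 10). A turned slope within the longer genes is thus not shown by the pooled values.

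**Figure D1:**
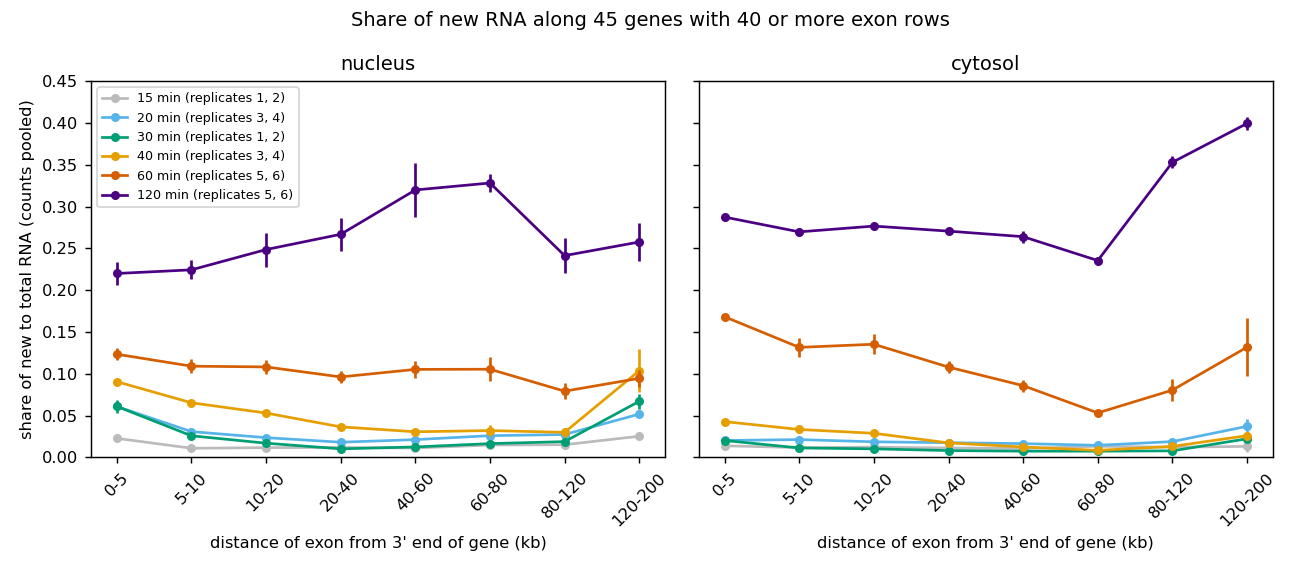
Share of labeled RNA (vertical axis, linear) against distance from the 3′ end of the gene in kb (horizontal axis) for the pooled exons of the 45 genes in the nucleus and in the cytosol, with 1 line per labeling time. Points are means of 2 libraries (replicates 1 and 2 at 15 and 30 min, 3 and 4 at 20 and 40 min, 5 and 6 at 60 and 120 min) and vertical lines join the 2 libraries; the nuclear 120 min line climbs away from the 3′ end from 0.233 and 0.206 to 0.352 and 0.288, at 40 to 60 kb, whereas the 20 and 40 min lines drop out to 40 kb and turn up beyond 120 kb.

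To compare genes one by one, the exons of each gene were put in genomic order and cut into 3 segments of equal exon number, and the label of the 3′ segment was tested against that of the 5′ segment with edgeR over 3647 genes with at least 10 counted exons. Genes with an adjusted p under 0.05 (Benjamini-Hochberg over all 3647 genes) are described as called. The replicates are independently passaged cultures. In the nucleus the 3′ segment carried the higher share in 8 of 45 genes at 15 min (27.8% of all tested genes) and in 28 at 20 min (79.8%). It did so in 34 genes at 30 min (82.0%), 35 at 40 min (64.6%) and 21 at 60 min (52.3%). At 120 min no member was called (0.219%), and 3 had an unadjusted p under 0.05. The median log2 ratio of the 3′ to the 5′ segment over the members was 0.64, 1.09, 1.83, 1.52, 0.58 and -0.12 at 15, 20, 30, 40, 60 and 120 min, against 1.31, 2.02, 2.43, 1.43, 0.84 and 0.25 over all tested genes. Thus the members' ratio was the smaller one at 15 to 30 min and after 60 and 120 min, and about as large as that of all genes at 40 min only. The count at 60 min rests on replicates 5 and 6, falling to 8 without the former and 7 without the latter, and the count of 8 at 15 min was 4 without replicate 1 and 5 without replicate 2, 5 or 6.

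Only Macf1 had a called lower label in the 3′ segment, at 20 min (0.768% of all tested genes), 30 min (0.466%) and 40 min (0.439%). At 120 min the log2 ratio was below 0 in 29 of 45 members (64.4%) and in 671 of 3602 genes with 10 to 39 exons (18.6%). The lowest value was that of Dync1h1, the heavy chain of cytoplasmic dynein, with a 5′ share of 0.389 and 0.309 and a 3′ share of 0.171 and 0.144 in replicates 5 and 6. The segments did not overlap, and the log2 ratio of -1.14 ± 0.31 (SE) had an adjusted p of 0.15.

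**Figure D2:**
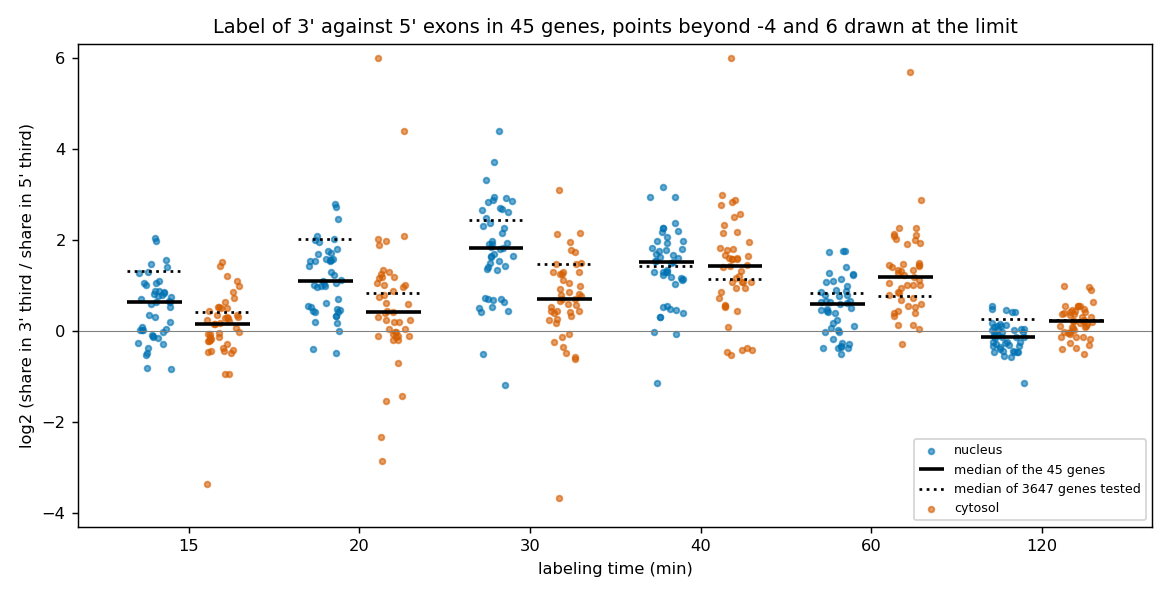
Log2 ratio of labeled share in the 3′ over the 5′ segment (vertical axis) for each of the 45 genes against labeling time (horizontal axis, min), in nucleus and cytosol, from the edgeR fit, with the medians of members and of all tested genes. Values beyond -4 and 6 are drawn at the limit; the nuclear median peaks at 1.83 at 30 min and the cytosolic one at 1.42 at 40 min.

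The clearest waves in single genes, named by the mean rank correlation of share with distance from the 3′ end at 40 min in the nucleus among the 26 members of at least 60 kb, included those of Trip12, Usp24, Cnot1, Anapc1, Ubr4, Nup205 and Ubr3. Over all members that correlation had a median of -0.54 and -0.57 in replicates 3 and 4 and was negative in 44 and 45 of 45 genes, as a description over exons that share libraries and reads. For Trip12 it was -0.89 and -0.79, by mean the strongest of the 45.

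Trip12 (ENSMUSG00000026219, chromosome 1, minus strand, counted exons from 84721189 to 84814969) encodes a HECT-type ubiquitin ligase. At 20 min its nuclear share was 0.0108, 0.0156, 0.0179 and 0.0226 in the 5′ segment and 0.0393, 0.0620, 0.107 and 0.0871 in the 3′ segment (replicates 1 to 4), with no overlap. The log2 ratio was 2.09 ± 0.15 (SE, adjusted p = 9.99e-15) at 20 min, 2.31 ± 0.21 at 30 min and 0.86 ± 0.14 (adjusted p = 6.42e-06) at 60 min. By 60 min in replicates 5 and 6 the 5′ segment had reached 0.11 and 0.0877 against 0.197 and 0.184 in the 3′ segment. At 120 min both segments carried the same level within their spread, 0.315 and 0.292 against 0.319 and 0.306, and the log2 ratio was 0.04 ± 0.19. Cut into 8 groups of exons, Trip12 showed the edge of the label directly. At 40 min in replicate 3 the shares ran 0.0320, 0.0275, 0.0383, 0.0356, 0.0443, 0.0637, 0.128 and 0.152 from the 5′ to the 3′ end. The last 3 groups lay on average 20.9, 10.7 and 3.8 kb from it. Replicate 4 gave 0.0599, 0.106 and 0.143 in those 3 groups and at most 0.0534 in the other 5.

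Usp24 (ENSMUSG00000028514, chromosome 4, plus strand, 106373659 to 106441322), a deubiquitinase, had the largest ratio of the 45 genes at 30 min. Its nuclear share then was 0.00789 and 0.00539 in the 5′ segment, from 3 and 4 mismatches, and 0.124 and 0.140 in the 3′ segment, from 665 and 1222 mismatches, in replicates 1 and 2. The groups were far apart, with a log2 ratio of 4.39 ± 0.60 (adjusted p = 7.44e-08). At 120 min the share was 0.555 and 0.540 in the 5′ segment and 0.556 and 0.476 in the 3′ segment, levels that overlap.

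Ubr3 (ENSMUSG00000044308, chromosome 2, plus strand, 69897246 to 70024013), an E3 ligase of the N-degron family, is at 127 kb the longest of the 8 wave genes. At 60 min its nuclear 5′ segment had 0.0854, 0.0666, 0.0644 and 0.0887 in replicates 3 to 6 and its 3′ segment 0.261, 0.167, 0.347 and 0.300. All 4 pairs lay the same way, and the log2 ratio of 1.76 ± 0.38 (adjusted p = 0.000298) was the largest at that time among the wave genes. At 120 min the segments were at 0.432 and 0.398 against 0.496 and 0.440, a log2 ratio of 0.17 ± 0.48. A gradient at 60 min was also measured in Anapc1 (ENSMUSG00000014355, chromosome 2), the largest subunit of the anaphase-promoting complex. Its shares were 0.129, 0.0573, 0.208 and 0.0873 in the 5′ segment against 0.322, 0.222, 0.333 and 0.290 in the 3′ segment then, and the log2 ratio was 1.40 ± 0.26 (adjusted p = 6.1e-05).

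Cnot1 (ENSMUSG00000036550, chromosome 8), the scaffold of the CCR4-NOT deadenylase, had lost its gradient by 60 min. At 20 min the 5′ segment had 0.00562, 0.00179, 0.0401 and 0.0212 and the 3′ segment 0.0430, 0.0597, 0.114 and 0.0715 (replicates 1 to 4), a log2 ratio of 2.80 ± 0.29 (adjusted p = 7.36e-11). At 60 min the 5′ segment had 0.280, 0.173, 0.227 and 0.181 and the 3′ segment 0.272, 0.167, 0.259 and 0.233 (replicates 3 to 6), ranges that overlap, with a log2 ratio of 0.12 ± 0.20. Nup205 (ENSMUSG00000038759, chromosome 6), an inner-ring nucleoporin, had log2 ratios of 2.94 ± 0.51 at 30 min and 1.28 ± 0.30 at 60 min, both called. Ubr4 (ENSMUSG00000066036, chromosome 4), an N-recognin, was called at 30 min with 1.48 ± 0.58 (adjusted p = 0.0187) but not at 20 min with 0.49 ± 0.39 or at 60 min with 0.58 ± 0.31.

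**Figure D3:**
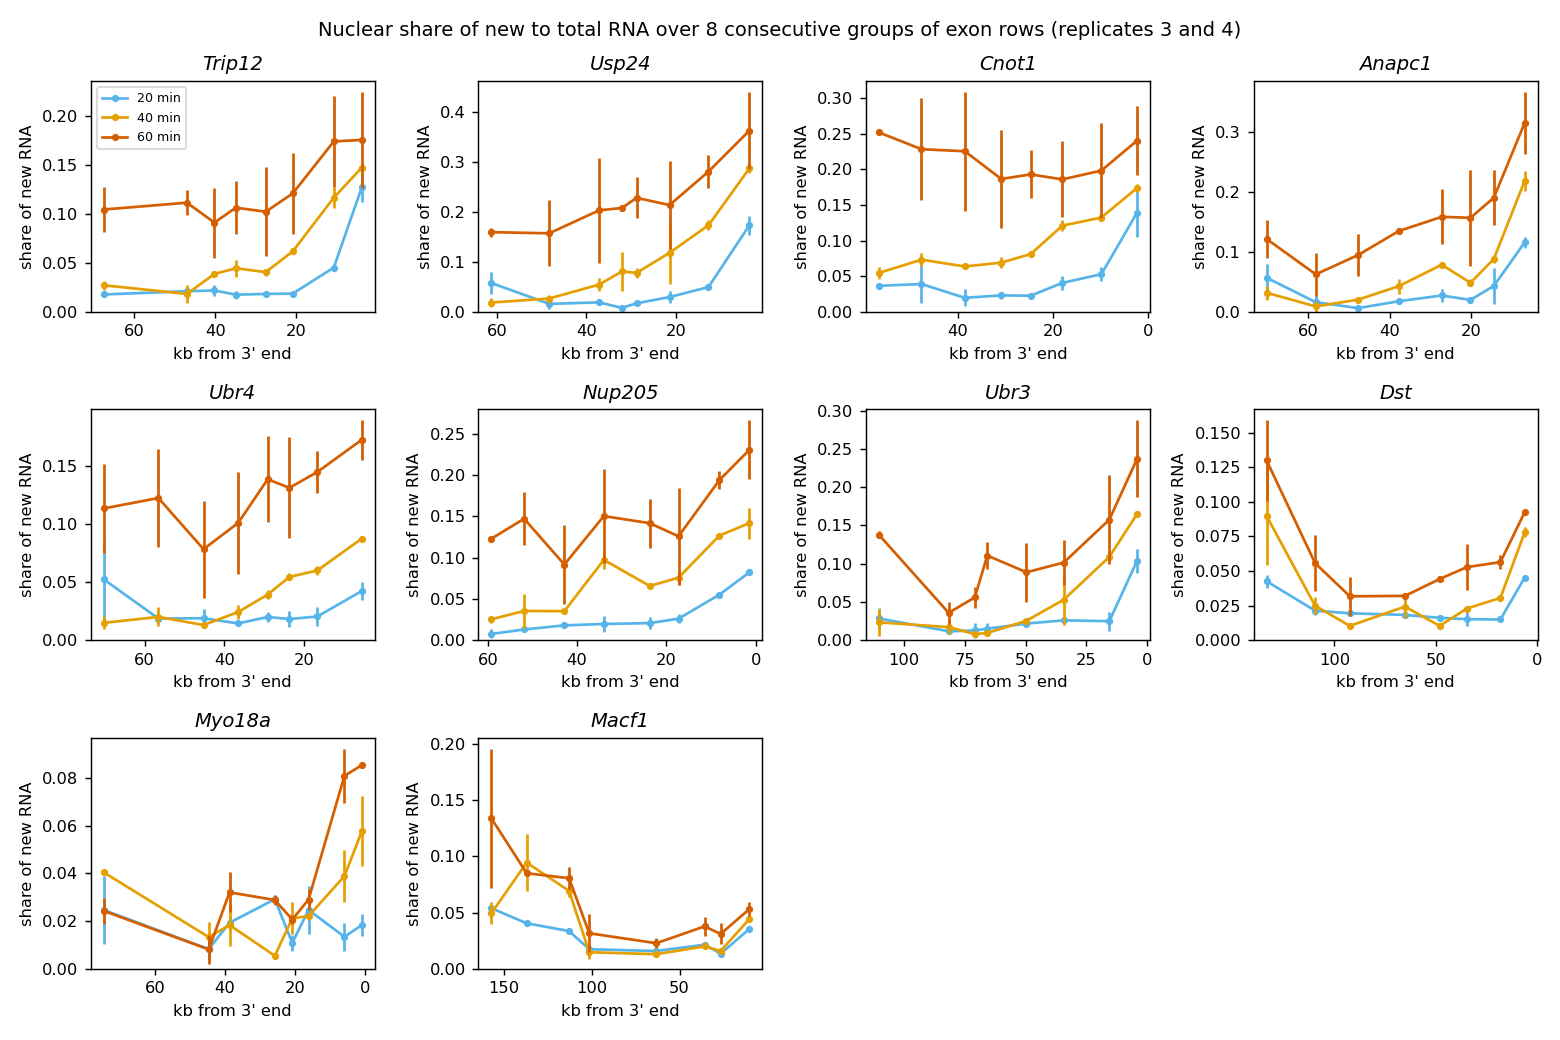
Nuclear share of labeled RNA (vertical axis, scaled for each gene) in 8 consecutive groups of exons against their mean distance from the 3′ end in kb (horizontal axis, 5′ end on the left) for 7 of the 8 wave genes and 3 of the 4 genes with the flattest profiles, at 20, 40 and 60 min. Points are means of replicates 3 and 4 and vertical lines join the 2 libraries; in Trip12 the 40 min values fall from 0.152 and 0.143 next to the 3′ end to 0.0320 and 0.0223 in the farthest group, and in Macf1 and Dst the 5′ end lies above the middle.

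The position of the label edge was estimated in each gene and library as the distance at which a straight decline from the 3′ end reaches its upstream base level. Over the members it had a median of 6.0 kb in both replicates 3 and 4 at 20 min and of 10.5 and 16.5 kb at 40 min. At 60 min it was 19.0 kb in replicate 3 and 9.0 kb in replicate 4, in the latter nearer the 3′ end than at 40 min. Between 20 and 40 min the edge moved upstream by a median of 0.425 kb per min in the 41 genes with an edge inside the counted exons in all 4 libraries. Of these, 37 had a positive value. Genes with no decline, or with the edge at the farthest counted exon, were left out of these medians. At 40 min the edge lay at the farthest exon in 2 genes in replicate 3 and in 1 in replicate 4. Replicate 3 alone gave 0.25 and replicate 4 alone 0.6 kb per min, and a step in place of a straight decline gave 0.125, so the value depends on the library and on the shape assumed. In Trip12 the edge lay at 11.5 ± 0.71 kb (SD, n = 2) at 20 min, 27.0 ± 1.41 kb at 40 min and 31.5 ± 4.95 kb at 60 min. Cnot1 went from 9.5 ± 0.71 to 30.0 ± 1.41 kb and Ubr4 from 10.0 ± 8.49 to 34.5 ± 7.78 kb between 20 and 40 min. At 60 min the edge of Cnot1 was back at 14.5 ± 7.78 kb. Usp24 went from 8.0 ± 2.83 to 35.0 ± 15.6 kb between 20 and 40 min. Of the other wave genes, Anapc1 went from 9.5 ± 0.71 to 17.0 ± 4.24 kb and Nup205 from 10.0 ± 1.41 to 15.0 ± 17.0 kb. The wave genes were named for a fall of label in these same 40 min libraries, so their 40 min edges describe that choice. In replicates 1 and 2 the edge moved by a median of 0.133 kb per min from 15 to 30 min, with a positive value in 22 of 35 genes, and with a step the median was 0 with a positive value in 15 of 42 genes.

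The change from 20 to 60 min was tested in the same fit, within replicates 3 and 4, which have both times. By the labels the 4sU dose differs between these times, but the methods of the study place some 60 min pulses at the higher dose. The nuclear conversion rate at 60 min was 7.66% and 8.29% in replicates 3 and 4, against 3.25% and 3.53% in replicates 5 and 6. At 20 min it was 3.37% and 3.56% in replicates 3 and 4. The 60 min ratios over all 4 libraries average these pairs, whose doses may differ. An effect of dose on the change was not tested. The change was below 0, a shallower gradient at 60 min, in 36 of 45 members and in 3027 of 3602 genes with 10 to 39 exons (84.0%). It was called in 6 of 45 members (22.5% of all tested genes): Fasn, Tln1, Cnot1, Usp9x, Trip12 and Prpf8. The largest was that of Fasn, the fatty acid synthase and with 17.0 kb the shortest member. Its nuclear log2 ratio over all 4 libraries of each time was 1.79 ± 0.24 at 20 min and -0.27 ± 0.18 at 60 min, and the change within replicates 3 and 4 was -1.80 ± 0.38 (adjusted p = 0.000666). At 40 min the 5′ segment of Fasn already had 0.114 and 0.140 against 0.144 and 0.170 in the 3′ segment. Usp9x, a deubiquitinase on the X chromosome, changed by -1.66 ± 0.33 (adjusted p = 0.000422) and Prpf8, the central protein of the spliceosome, by -1.33 ± 0.37 (adjusted p = 0.00937). The change was called upward in Myo18a alone (0.219%), by 2.15 ± 0.72 (adjusted p = 0.0281), with ratios over all 4 libraries of -0.40 ± 0.48 at 20 min and 1.76 ± 0.37 at 60 min. The count of 6 was 10, 10 and 12 without replicates 1, 2 and 4 in turn, and 4 without replicate 3, 5 or 6. Where a time is left with 1 library, that library is assumed to vary like the others.

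Grouped by role, from lists drawn up for this work, the ubiquitin system comes first. Of its 9 members (among them Birc6, Huwe1, Trip12, Ubr3, Ubr4, Usp24, Usp34 and Usp9x), 7 were called higher in the 3′ segment at 40 min in the nucleus and 9 at 60 min in the cytosol, beside 12 of the 15 tested genes of the whole list at each. Over all tested genes the shares called were 64.6% at 40 min in the nucleus and 41.6% at 60 min in the cytosol. These shares stand beside the lists that follow as well. Each list includes its members, and no list was tested against all genes. Huwe1, a HECT ligase on the X chromosome, had nuclear log2 ratios of 1.58 ± 0.30 (adjusted p = 1.4e-05) at 20 min and -0.02 ± 0.24 at 60 min. Usp34, a deubiquitinase of 157 kb, still had 1.07 ± 0.24 (adjusted p = 0.000378) at 60 min.

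Of 7 members in RNA processing and translation, 6 were called at 40 min in the nucleus and 3 at 60 min in the cytosol, beside 11 and 6 of the 14 tested genes of that list. Mdn1, the AAA ATPase of ribosome assembly, had a log2 ratio of 2.20 ± 0.37 (adjusted p = 9.56e-06) and Utp20, a factor of ribosomal RNA processing, 1.75 ± 0.45 (adjusted p = 0.00121) at 40 min. Prpf8 was the member not called then, at 0.31 ± 0.26. All 3 nuclear pore members were called at 40 min, beside 9 of 10 in the list. Nup205 is described above, Nup188 had 1.52 ± 0.43 (adjusted p = 0.00297) and Tpr, a protein of the nuclear basket, 1.03 ± 0.35 (adjusted p = 0.0121). The single member among chromatin factors, the NuRD helicase Chd4, was called with 1.34 ± 0.27 (adjusted p = 8.87e-05), beside 18 of 26 in its list. Trrap, the pseudokinase scaffold of histone acetyltransferases and the single member among the PIKK kinases and their partners, was called with 1.49 ± 0.50 (adjusted p = 0.0107), beside 4 of 6.

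Matrix genes were called in the nucleus in 3 of 3 cases at 40 min, beside 15 of 19 in their list. Fn1, fibronectin, had 0.0272 and 0.0209 in the 5′ segment and 0.0656 and 0.0714 in the 3′ segment, a log2 ratio of 1.53 ± 0.35 (adjusted p = 0.0004). Hspg2, perlecan, had 1.63 ± 0.46 (adjusted p = 0.00287) and Lama5, a laminin chain, 1.23 ± 0.42 (adjusted p = 0.0121). Of the metabolic enzymes, Cad, which begins pyrimidine synthesis, was called with 1.17 ± 0.33 (adjusted p = 0.00328) and Fasn was not, at 0.31 ± 0.26; 5 of the 10 tested genes of that list were called. No member belonged to the list of DNA replication and repair genes, of which 6 of 8 tested were called at 40 min.

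Cytoskeletal members were the most mixed group. Of 10, 5 were called higher in the 3′ segment and 1 lower at 40 min in the nucleus, beside 20 higher and 1 lower of 27 in the list. Sptan1, the spectrin alpha chain, was called at 20, 30, 40 and 60 min, with 1.69 ± 0.33 (adjusted p = 7.13e-05) at 40 min. Flna, filamin A, was called at no nuclear time. Its 40 min shares were 0.0136 and 0.0203 in the 5′ segment and 0.0234 and 0.0227 in the 3′ segment, close together, with a log2 ratio of 0.46 ± 0.34. Its label stayed low throughout, at 0.105 and 0.0738 in the 5′ segment and 0.0801 and 0.0689 in the 3′ segment after 120 min.

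The flattest profiles among members of at least 60 kb, by the same correlation at 40 min, included those of Dst, Myo18a and Macf1. Macf1 (ENSMUSG00000028649, chromosome 4, minus strand, 123349633 to 123536294), a plakin that links microtubules to actin, has the most exons, 98, and the longest span, 187 kb. At 30 min its nuclear 5′ segment had 0.0627 and 0.0723 and its 3′ segment 0.0290 and 0.0302, without overlap, a log2 ratio of -1.19 ± 0.30 (adjusted p = 0.000656). At 20 min the ratio was -0.49 ± 0.22 (adjusted p = 0.0401), a call that turned to 0.21 with exons of at least 1000 T counts only and to 0.23 with the outer ones of 5 segments. At 40 min the shares were 0.0992 and 0.0666 against 0.0377 and 0.0357 and the ratio -1.15 ± 0.30 (adjusted p = 0.00133).

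The label in the 5′ segment of Macf1 sat largely in 1 very long exon. A pair of overlapping annotated versions of it, of 5361 and 5331 bases at chr4:123471007-123476367, 124 kb from the 3′ end, had a share of 0.137 and 0.0942 at 40 min. Without them the 5′ segment was at 0.0446 and 0.0286, above the 3′ segment (0.0377) in replicate 3 and below it (0.0357) in replicate 4. In 8 groups of exons, Macf1 had shares of 0.0591, 0.120, 0.0744, 0.0209, 0.0133, 0.0192, 0.0161 and 0.0445 at 40 min in replicate 3 and 0.0394, 0.0687, 0.0641, 0.00853, 0.0126, 0.0206, 0.0156 and 0.0440 in replicate 4. Both libraries were lowest in the fourth to the seventh group, on average 101.5 to 26.6 kb from the 3′ end.

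Dst (ENSMUSG00000026131, chromosome 1, plus strand, 34163009 to 34308652), the related plakin dystonin, also had a higher share at both ends than in the middle. Its 8 groups gave 0.125, 0.0312, 0.00824, 0.0327, 0.00816, 0.0223, 0.0328 and 0.0746 at 40 min in replicate 3 and 0.0542, 0.0188, 0.0126, 0.0160, 0.0127, 0.0236, 0.0284 and 0.0815 in replicate 4. The first group holds exons of 2703, 2770 and 5292 bases, whose shares were 0.240 and 0.345, 0.189 and 0.153, and 0.101 and 0.0246 in the 2 libraries. Without these 3 exons the 5′ segment of Dst was at 0.0285 and 0.0145, below the 0.0557 and 0.0559 of the 3′ segment in both libraries, where with them it had been at 0.0850 and 0.0381. The test with all exons gave a log2 ratio of -0.03 ± 0.33. Exons of over 2000 bases outside the 3′ segment occurred in 3 members only, Macf1, Dst and the corepressor gene Ncor1.

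**Figure D4:**
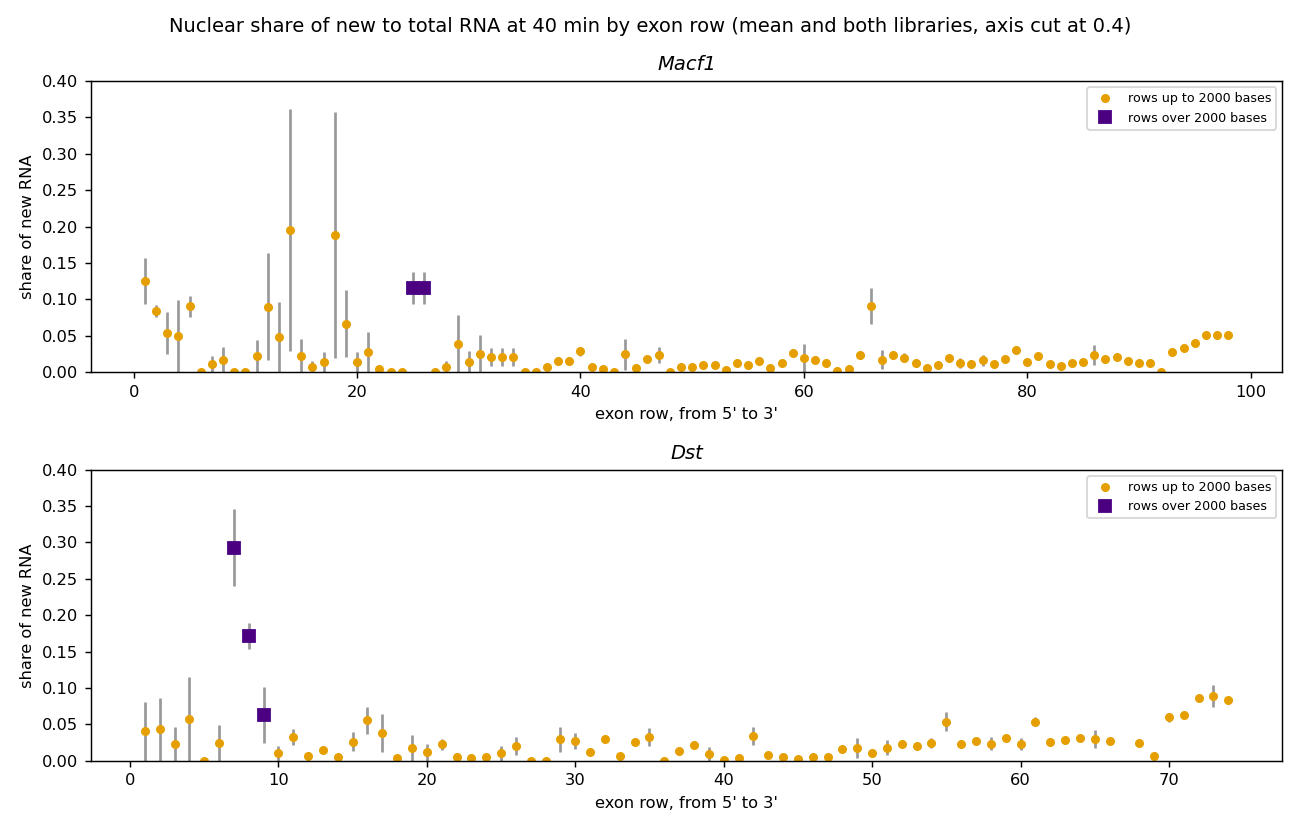
Nuclear share of labeled RNA at 40 min (vertical axis, cut at 0.4, which leaves out 1 exon of 18 bases in Dst) of each counted exon of Macf1 and Dst in order from the 5′ to the 3′ end (horizontal axis, exon number). Points are means of replicates 3 and 4, vertical lines join both libraries and squares mark exons of over 2000 bases; the squares of Macf1 stand at 0.137 and 0.0942 in the 2 libraries and the first of Dst at 0.240 and 0.345.

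Myo18a, an unconventional myosin (ENSMUSG00000000631, chromosome 11), had no called gradient up to 40 min and one at 60 min. Its 60 min shares were 0.0184, 0.0228, 0.0264 and 0.0542 in the 5′ segment and 0.0789, 0.0831, 0.122 and 0.114 in the 3′ segment (replicates 3 to 6), without overlap. The log2 ratio was 1.76 ± 0.37 (adjusted p = 0.000248).

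In the cytosol the gradient was called in fewer members than in the nucleus up to 40 min, and the count was highest at 60 min. The cytosolic 20 min libraries held 2157 to 3305 T2C mismatches in the members, against 8684 to 81328 in the nuclear ones. Within 5 kb of the 3′ end their share was 0.0158 to 0.0164 in replicates 1 and 2, near the floor of 0.0109 to 0.0131. In replicates 3 and 4 it was 0.0191 to 0.0215, above a floor of 0.00930 to 0.0104. A later gradient and one too weakly labeled to be called were therefore not told apart. The 3′ segment was higher in 1 of 45 genes at 15 min (3.73% of all tested genes), which was Trip12, and in 10 at 20 min (22.2%). Thereafter the count was 11 after 30 min (40.4%), 22 after 40 min (35.0%) and 32 after 60 min (41.6%). It was lower in 1 gene each at 15 min (Ktn1, 0.576%), 20 min (Myo18a, 1.32%) and 30 min (Kntc1, 0.685%), and in none at the later times. At 120 min no member was called (0.329%), and 1 had an unadjusted p under 0.05. The median log2 ratio over the members was 0.41, 0.69, 1.42, 1.19 and 0.21 at 20, 30, 40, 60 and 120 min, against 0.83, 1.47, 1.14, 0.77 and 0.24 over all tested genes. The count of 22 at 40 min was 11 without replicate 4, and that of 32 at 60 min was 18 without replicate 5 or without replicate 6. The count of 10 at 20 min was 5 without replicate 4, and that of 11 at 30 min was 6 without replicate 1 and 5 without replicate 2.

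Pooled over the members, the cytosolic share after 60 min was 0.172 and 0.165 within 5 kb of the 3′ end, 0.115 and 0.101 at 20 to 40 kb and 0.0562 and 0.0503 at 60 to 80 kb (replicates 5 and 6). Both libraries declined from 20 kb out to 80 kb and were higher again in the 2 farthest classes. The share was 0.0671 and 0.0940 at 80 to 120 kb and 0.166 and 0.0975 beyond 120 kb, where it was 0.0959 and 0.0459 without exons of over 2000 bases. After 40 min (replicates 3 and 4) it was 0.0392 and 0.0465 within 5 kb and 0.00906 and 0.00798 at 60 to 80 kb, near the floor of 0.00539 to 0.00686. After 120 min it was 0.289 and 0.286 within 5 kb and 0.240 and 0.231 at 60 to 80 kb. It was 0.360 and 0.346 at 80 to 120 kb and 0.392 and 0.407 beyond 120 kb, the highest of the distance classes. Without exons of over 2000 bases the class beyond 120 kb was at 0.318 and 0.257, below the 80 to 120 kb class with all its exons.

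Trip12 had cytosolic shares at 60 min of 0.0302, 0.0244, 0.0612 and 0.0671 in the 5′ segment and 0.0803, 0.0652, 0.181 and 0.180 in the 3′ segment (replicates 3 to 6), higher within each library, with a log2 ratio of 1.45 ± 0.14 (adjusted p = 3.96e-10). Anapc1 had 0.0178, 0.0153, 0.0254 and 0.0266 against 0.0684, 0.0576, 0.132 and 0.119, a log2 ratio of 2.09 ± 0.29 (adjusted p = 7.79e-07). Ubr3 had 0.0126, 0.0176, 0.0479 and 0.0303 against 0.0851, 0.0689, 0.189 and 0.173, a log2 ratio of 2.27 ± 0.41 (adjusted p = 4.34e-05). In these 3 genes the 3′ segment was above the 5′ segment in 4 of 4 libraries. Usp34 followed with 2.02 ± 0.26 (adjusted p = 1.76e-07). Fasn and Prpf8 had none at that time, with -0.28 ± 0.20 and 0.05 ± 0.19. For Macf1, whose nuclear profile went the other way, the cytosolic ratio at 60 min was 2.27 ± 0.39 (adjusted p = 2.14e-05). Its 5′ segment held only 0, 4, 18 and 17 mismatches there, against 210, 480, 688 and 691 in the 3′ segment.

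From 20 to 60 min, again within replicates 3 and 4, the change of the cytosolic ratio was above 0 in 33 of 45 members and below 0 in 12. It was called upward in 5 members (1.92% of all tested genes) and downward in none. Among those called were Lama5, Myo18a, Usp34 and Trip12. Usp34 changed by 2.59 ± 0.53 (adjusted p = 0.00392) and Trip12 by 1.06 ± 0.29 (adjusted p = 0.0345). In Lama5 the 5′ segment held 0, 0, 1 and 6 mismatches and the 3′ segment 4, 2, 0 and 0 at 20 min. In Myo18a they held 0, 4, 8 and 12 against 2, 4, 1 and 0, in both genes too few for a size of the change. No member was called without replicate 4, and 3 were without replicate 5 or replicate 6.

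Longer members were called more often in the cytosol, as a count with no test. At 60 min the 3′ segment was called higher in 1 of 7 members shorter than 30 kb, 5 of 12 of 30 to 60 kb, 16 of 16 of 60 to 90 kb and 10 of 10 of at least 90 kb. In genes with 10 to 39 exons the same 4 classes of length had 25.2%, 52.4%, 66.2% and 79.9% called. In the nucleus at 40 min the members called were 3 of 7, 11 of 12, 14 of 16 and 7 of 10 from the shortest to the longest class, against 52.3%, 76.8%, 80.8% and 82.3% in genes with 10 to 39 exons. At 60 min they were 0 of 7, 6 of 12, 9 of 16 and 6 of 10, against 44.1%, 58.8%, 65.3% and 70.4%. Lengths were measured between counted exons, so unmeasured upstream exons do not enter.

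The nuclear and cytosolic ratios were compared in the same fit, which takes both fractions of a replicate as separate libraries. At 20 min the nuclear ratio was called higher in 9 members (22.0% of all tested genes), among them Fasn, Psme4, Anapc1, Cnot1, Trip12, Huwe1, Cad and Usp34, with differences of 1.21 to 1.91 on the log2 scale. It was called lower in Macf1 alone (0.548%), by 2.58 ± 0.63 log2 units (adjusted p = 0.00249), where the cytosolic 5′ segment held 0, 3, 0 and 3 mismatches in replicates 1 to 4. At 40 min it was called higher in Anapc1 alone (0.877%), by 2.42 ± 0.60 (adjusted p = 0.033). At 60 min it was called lower in 2 members (0.439%), Macf1 and Usp9x. In Usp9x the nuclear shares were 0.240, 0.116, 0.212 and 0.197 in the 5′ segment and 0.187, 0.0799, 0.171 and 0.163 in the 3′ segment, whereas the cytosolic ones were 0.0520, 0.0596, 0.128 and 0.130 against 0.0912, 0.0808, 0.187 and 0.177. The order of the segments was opposite in all 4 replicates, and the difference was -0.92 ± 0.23 (adjusted p = 0.0472). The counts are small and unsteady: that of 9 was 4 without replicate 2, and that of 2 was 0 without replicate 6, 1 without replicate 5 and 4 without replicate 3.

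Although few members were called singly, most lay on the same side. At 60 min the nuclear ratio was below the cytosolic one in 40 of 45 members (88.9%) and in 1637 of 3602 genes with 10 to 39 exons (45.4%), with medians of -0.68 over the members and 0.05 over all tested genes. At 120 min it was below in 41 of 45 (91.1%) and 1759 of 3602 (48.8%). The members are longer than the other genes, and in those the median difference at 60 min also went down with span, from 0.16 below 30 kb through 0.03 and -0.16 to -0.43 at 90 kb or more. In the same 4 classes of span the members had medians of -0.43, -0.50, -0.69 and -0.76, lower in each class. The genes share their libraries, and this difference was not tested.

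**Figure D5:**
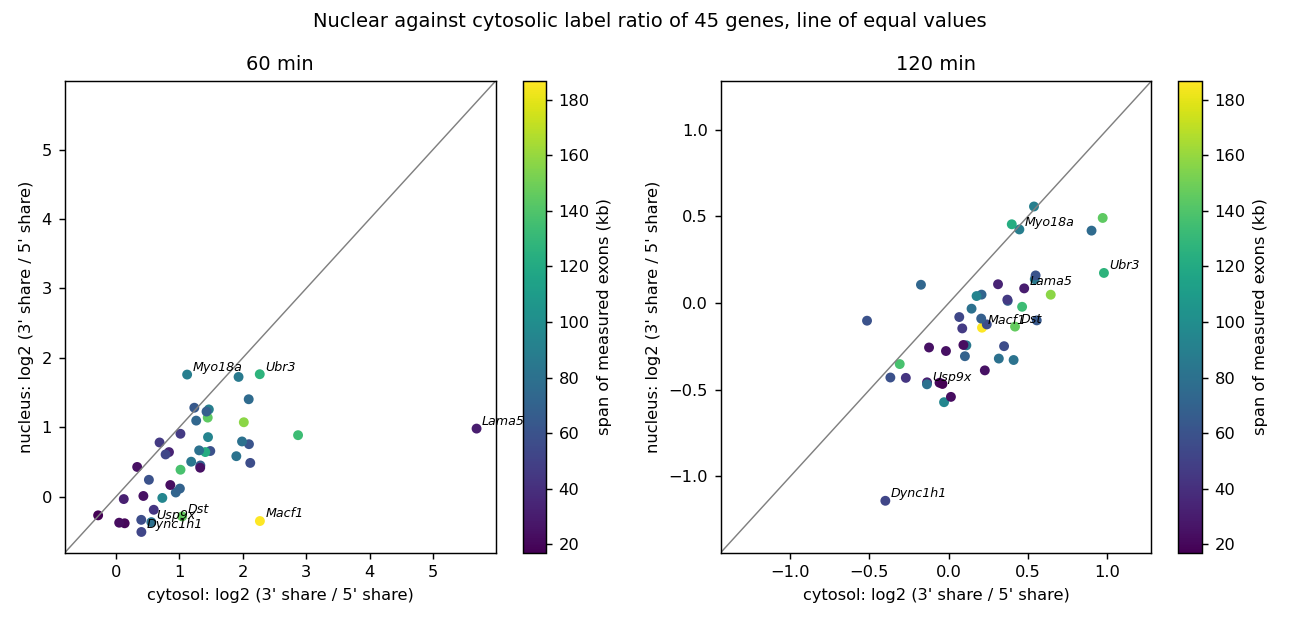
Log2 ratio of labeled share in the 3′ over the 5′ segment in the cytosol (horizontal axis) and in the nucleus (vertical axis) for the 45 genes at 60 and 120 min, from the edgeR fit, colored by the span of the counted exons in kb, with the line of equal ratios. At 60 min 40 of 45 genes and at 120 min 41 of 45 lie below the line, on the side of the higher cytosolic ratio; Lama5, at the far right at 60 min, rests on few mismatches.

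The introns of the members carried more label than their exons. The nuclear share in introns of the members had a median of 0.162 and 0.158 at 15 min, 0.761 and 0.715 at 40 min and 0.98 and 0.96 at 120 min (replicates 5 and 6). The exons of the same genes as a whole were at a median of 0.080 and 0.079 at 40 min, against 0.128 and 0.123 in genes with 10 to 39 exons. The first counted exon was close to those after it. At 40 min the pooled first exons had 0.0435 and 0.0292 and exons 2 to 5 had 0.0390 and 0.0342, and the first was the higher one in 20 and 16 of 45 genes.

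The members also differed in where their RNA was found. CPM (counts scaled to the reads on genes of a library) was a median of 2.26 times as high in the nucleus as in the cytosol, and lowest in Nup188 at 0.80. The members were chosen by T counts of a nuclear library, so the rule itself favors genes with many nuclear reads. The ratio was not computed for other genes, so its level is not a result about the members. Flna had a ratio of 33.2, Macf1 24.2, Dst 19.3, Sptan1 15.8 and Hspg2 12.3. Of other cytoskeletal members, Myo18a with 8.25 and Dync1h1 with 7.75 also lay above the median. Ckap5 with 1.60, Cep192 with 1.86 and Tln1 with 2.42 lay near or below it. Flna had a median of 2170 CPM in the nucleus and 65.3 in the cytosol. The values are relative to each fraction's own total, so fewer molecules per cell and a larger total of other RNA cannot be told apart.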

How the data were processed

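RNA was labeled with 4sU, alkylated with iodoacetamide and sequenced as polyadenylated RNA in 72 libraries of 4 fractions. The authors aligned reads with STAR 2.7.6 to mm10 and counted reads per gene with HTSeq 0.11.1 (versions from the submitters' processing notes, which also list RSEM 1.3.3); they deposited read counts per gene and, per exon, T counts and T2C counts, with sites that also varied in unlabeled cells left out. The authors deposited the conversion rate of each library as a fraction, from a mixture model, and, per exon, a ratio (T2C over T, scaled by the conversion rate). This ratio was recomputed here from the counts and differed by at most 2.4e-13. Exons were matched by identifier to a GRCm38 annotation; 291 had no match and 58 lay on another chromosome or strand than their gene and were left out.

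Exons with at least 400 T counts in the nuclear 120 min library of replicate 5 were used, and genes with at least 10 of them were tested. T2C counts of the 3′ and 5′ segments were fitted with edgeR 4.0.16 (quasi-likelihood test, R 4.3.3), with the logarithm of T counts times conversion rate as offset, 1 level per library and a 3′ effect per fraction, time and replicate pair; where a time had 2 pairs their effects were averaged, and changes from 20 to 60 min were taken within replicates 3 and 4. P-values were adjusted over all 3647 genes. Such intervals and tests do not cover errors shared by all exons of a library. On simulated counts for the nuclear 40 min comparison of 3649 genes, 1.49% of 1.5-fold, 19.4% of 2-fold and 89.4% of 4-fold changes were recovered, and 5 of 3449 unchanged genes were called. Label edges were fitted by weighted least squares in Python 3.11.15. Deviations of same-numbered samples had correlations of -0.038 to 0.049 over 72 pairs, and the numbers were not used as pairs. Deviations were taken from the mean of 2 libraries, so both replicates of a pair give the same value and each correlation occurs 2 times. Low counts per gene limit these correlations, so they do not show that same-numbered samples are independent.

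Members and gene lists were chosen with earlier results of these data known. Genes named are the 8 members of at least 60 kb with the most negative and the 4 with the least negative correlation of share and distance, the 4 with the most exons and the 4 longest, those at the limit of 40 exons, and up to 4 per list; others (such as Tln1, Psme4, Ktn1, Kntc1 and Ncor1) were named after their values were seen. Some members that this rule names are not reported here, though they stay in the fits and counts. Alternatives were another exon minimum, 5 segments, 1 exon per overlapping group, no filter on low counts, TMM factors, limma 3.58.1 on log2 of share plus 0.01 or 0.05, a replicate block, and leaving out replicates.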

Additional observations from a re-analysis of the deposited data

Results flagged for a closer look

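Results in which the ratio of the 3′ to the 5′ segment differed between nucleus and cytosol, or between 60 and 20 min, by the test of that difference (edgeR, adjusted p under 0.05) are collected here, among the members named, as log2 differences. At 20 min the nuclear ratio was above the cytosolic one by 1.91 in Fasn, 1.78 in Psme4 (a proteasome activator), 1.67 in Anapc1, 1.55 in Cnot1, 1.49 in Trip12, 1.33 in Huwe1, 1.25 in Cad and 1.21 in Usp34. The difference was -2.58 in Macf1. At 40 min it was 2.42 in Anapc1. At 60 min it was -0.92 in Usp9x and -2.62 in Macf1. In Macf1 the cytosolic 5′ segment held few mismatches at 20 and at 60 min, as given above. The calls at 60 min were not kept in every fit that leaves out a replicate.

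From 20 to 60 min, within replicates 3 and 4, the nuclear ratio changed by 2.15 in Myo18a, -1.33 in Prpf8, -1.48 in Trip12, -1.66 in Usp9x, -1.68 in Cnot1, -1.76 in Tln1 (talin, which links integrins to actin) and -1.8 in Fasn. The cytosolic ratio changed by 12 in Lama5, 6.93 in Myo18a, 2.59 in Usp34 and 1.06 in Trip12. The values of Lama5 and Myo18a are no estimate of size, since their segments held at most 12 mismatches at 20 min.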

How the results depend on the processing

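Counts of called members depended on the processing mostly at the short pulses and in comparisons of ratios. The nuclear count of 8 at 15 min was 5 with 5 segments, 18 with TMM factors, 4 with a replicate block, 3 with limma and a pseudocount of 0.05, and 4 to 8 without single replicates. Over the latter fits the nuclear count was 25 to 32 at 20 min, 26 to 37 at 30 min, 32 to 35 at 40 min and 7 to 24 at 60 min. The cytosolic count of 10 at 20 min was 5 with 5 segments, 6 with 1 exon per overlapping group, 16 with TMM factors, 4 with limma at 0.05, and 5 to 7 without single replicates. That of 11 at 30 min was 6 with 5 segments, 5 with a replicate block, 2 with limma at 0.05, and 5 to 12 without single replicates; those at 40 and 60 min were 11 to 24 and 18 to 33. The 9 members called with a higher nuclear ratio at 20 min were 14 with exons of at least 1000 T counts, 3 with 5 segments, 16 and 17 with limma at 0.01 and 0.05, and 4 to 8 without single replicates. The 2 called with a lower one at 60 min were 1 with 1000 T counts, 0 with 5 segments, 1 with a replicate block, 1 and 9 with limma at 0.01 and 0.05, and 0 to 4 without single replicates. The 6 called with a fallen nuclear ratio from 20 to 60 min were 11 with 1000 T counts, 11 with 1 exon per overlapping group, 12 with the 120 min libraries of replicates 3 and 4 in the fit, and 4 to 12 without single replicates. The 5 called with a risen cytosolic ratio were 3 with 1000 T counts, 8 with limma at 0.05, and 0 to 7 without single replicates. The cause of these shifts was not tested.

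Among 159 called results of 29 named members, 2272 repeats under 16 alternatives kept direction and call, 269 kept the direction and lost the call, and 3 changed sign. Macf1 in the nucleus at 20 min was 0.21 with 1000 T counts and 0.23 with 5 segments. Myo18a in the cytosol at 20 min was 0.90 without replicate 2, over a range of -5.84 to 0.90. TMM factors moved these log2 ratios by a median of 0.35 in the cytosol at 20 min and of -0.19 in the nucleus at 30 min. Leaving out exons with raw T2C above 0.2% in the cytosolic 15 min libraries, an alternative chosen after seeing the data, kept every count within 1.5 times. Depth limits the 5′ segments in the cytosol, where several genes had under 10 mismatches.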

Other observations

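In the membrane fraction, which no comparison above uses, the median over the 45 genes of the ratio of labeled share in the 3′ to the 5′ segment was 1.14 and 1.10 at 20 min and 2.74 and 1.21 at 40 min in replicates 3 and 4. At 60 min it was 1.34, 1.58, 1.87 and 1.69 in replicates 3 to 6, and at 120 min 0.843, 0.969, 1.04 and 0.953. The 40 min libraries thus differed from each other by more than those of 60 min did.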
